A study of Saccharomyces cerevisiae with 9 samples.

Results

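The genes described here encode the lower part of yeast glycolysis, from the splitting of fructose bisphosphate to pyruvate. They were chosen by name: the aldolase FBA1, the triose phosphate isomerase TPI1, the glyceraldehyde-3-phosphate dehydrogenases TDH1, TDH2 and TDH3, the phosphoglycerate kinase PGK1, the phosphoglycerate mutase GPM1, the enolases ENO1 and ENO2, and the pyruvate kinase CDC19. Of these 10 genes, 9 had a probe set with that symbol in the platform annotation, out of 5449 genes measured in all. TDH2 had no listed probe set and was not analysed here. Each of the 9 genes rested on 1 probe set, so no choice between probe sets was needed.

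The lower part of glycolysis is where ATP is made. Glyceraldehyde-3-phosphate dehydrogenase reduces NAD+ and forms a high-energy phosphate, phosphoglycerate kinase passes that phosphate to ADP, and after mutase and enolase the pyruvate kinase makes a further ATP. In fermenting budding yeast these mRNAs are among the most abundant of the cell, and the activators Rap1, Gcr1, Gcr2 and Tye7 drive many of them. Several steps are encoded by isozymes with different regulation: TDH3 and ENO2 are the main forms during growth on glucose, ENO1 is made also without glucose, and TDH1 is the form linked to stress and to slow or arrested growth. FBA1, TPI1, PGK1 and GPM1 have no second gene that carries the step, and CDC19 has a minor paralogue, PYK2. These 5 are called single-copy steps below.

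The study exposed Saccharomyces cerevisiae to bisphenol A (BPA), a plastic monomer, and measured gene expression on 9 one-colour oligonucleotide arrays, 3 in each of 3 groups. All cultures grew in YPD, a rich glucose broth, at 30 °C to mid-exponential phase and were then exposed for 180 min to 50 mg/L BPA, to 300 mg/L BPA, or to the same volume of the ethanol solvent alone (control). Ethanol was thus present in all 3 groups. The labels call the replicates biological but do not say how the cultures were started, and the strain is not given in the sources used here. The p-values thus weigh differences between groups against the spread within groups of these 9 samples. Whether the cultures were independent is not known. Between 5363 and 5418 of the 5449 genes lay above the 95th percentile of the fission yeast probe sets that the array also carries, and all 9 lower glycolysis genes did so on every array.

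Values are log2 expression levels after the authors' RMA normalization, so 1 unit is a doubling, and every change is measured against the rest of the same array. A loss shared by all genes, through fewer cells or less RNA per cell, is not seen on this scale, and these cannot be told apart. Levels are given as mean ± SD of 3 arrays, and changes with the standard error (SE) of a limma fit over all 5449 genes. A gene was called at a Benjamini-Hochberg adjusted p under 0.05 over all of these genes.

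At 300 mg/L, all 9 measured genes were lower than in control, and they fell by very unequal amounts. TDH1 fell to 41.0% and ENO1 to 43.3% of the control level, while the other 7 genes fell by 0.16 to 0.50 on the log2 scale, or 1.12- to 1.42-fold. Over all genes, 25.2% were called lower in this comparison and 27.5% higher, and 1.19% were called lower by at least 2-fold, a group that holds TDH1 and ENO1. The median change of the 9 genes was -0.23, against 0.01 over all genes. On each of the 9 genes the 3 arrays at 300 mg/L lay below the other 6 arrays, an order that 24.8% of all genes showed.

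**Figure D1:**
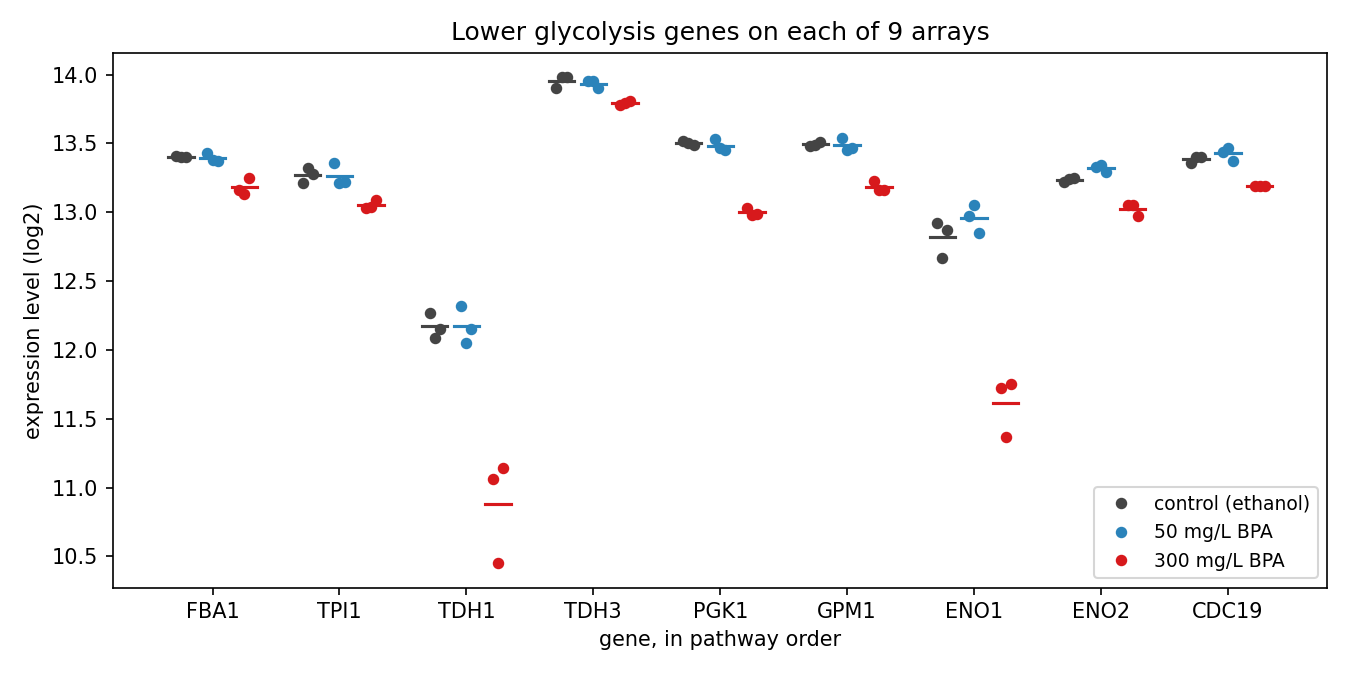
Expression levels (log2) of the 9 measured lower glycolysis genes on each array, in pathway order; each point is 1 array and each short line the mean of 3. The 300 mg/L arrays lie below the control and 50 mg/L arrays for every gene shown, with wide gaps for TDH1 and ENO1.

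TDH1, ENO1 and PGK1 were called under every scaling tried, whereas the calls of the other 6 genes depend on how the arrays are scaled. With the summarised values quantile-normalized once more, none of these 6 was called. Their changes ran from -0.09 to 0.025, the latter for CDC19 in place of -0.20. This step gives the brightest gene the same value on every array, and that gene was TDH3 on all 9 arrays. TDH3 thus could not change under it, and its lost call there is not informative. The step gives each rank the same value on every array, so the others of these 6 could change only by changing rank. A fall shared by the brightest genes is removed by it, so those lost calls do not show whether the genes fell. With the arrays centred on spiked-in bacterial and phage controls, none of the 6 was called either, but their falls were larger, with changes of -0.40 to -0.25. The SE there was 0.18 for each of the 9 genes, against 0.06 to 0.07 for these 6 on the deposited scale. A shared SE does not reflect the replicate spread of each gene, so the calls kept or lost there rest on that shared value. The 6 genes lie at the bright end of the scale. The brightest probe set of an array stood at 13.90 to 13.98 in control and at 13.78 to 13.81 at 300 mg/L. On all 9 arrays it was that of TDH3 itself. Of the 136 genes with a mean level of at least 12, 20.6% were called lower and 10.3% higher, with a median change of -0.02. These shares include the lower glycolysis genes that lie this high. Without them 128 genes remained, with a median change of 0.005. The part of the array's upper limit in these small changes was not tested.

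TDH1, the dehydrogenase isozyme linked to stress and slow growth, stood at 12.27, 12.09 and 12.15 on the control arrays. It stood at 12.32, 12.05 and 12.15 at 50 mg/L, and at 11.06, 10.45 and 11.14 at 300 mg/L. The 300 mg/L arrays were clearly apart from the rest, with replicate 2 the lowest. TDH1 fell by 1.29 ± 0.16 (SE) on the log2 scale, 2.44-fold (adjusted p = 0.000139 by limma). Its SD at 300 mg/L, 0.38, was the highest of the 9 genes, where the median gene of the array had 0.08.

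TDH3, which supplies most of the enzyme during fermentation, stood at 13.90, 13.98 and 13.98 in control. It stood at 13.95, 13.95 and 13.90 at 50 mg/L, and at 13.78, 13.79 and 13.81 at 300 mg/L. The 300 mg/L arrays did not overlap the others, but the gap was narrow. The fall of 0.16 ± 0.06 (SE) just passed (adjusted p = 0.0434 by limma). It passed in 2 of 9 fits that each left out 1 array. The adjusted p rose to between 0.0547 and 0.132 without any 1 of the 3 control arrays, any 1 of the 3 arrays at 300 mg/L, or replicate 3 at 50 mg/L.

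The array carries 4 further control probe sets for TDH1, placed along the transcript, which the gene comparison did not use. Control probe sets were tested in a limma fit over all 10928 probe sets, of which 11.7% were called lower at 300 mg/L. The probe set at the 3' end changed by -1.17 ± 0.15 (SE), the one at the 5' end by -1.74 ± 0.20 and the one in the middle by -2.12 ± 0.24, with adjusted p of 0.000197, 0.000106 and 8.75e-05. The size of the TDH1 fall thus ranged from 2.25-fold to 4.35-fold with the probe set, around the 2.44-fold of the gene's own probe set.

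The fourth control probe set carries the array maker's mark for probes that match more than one transcript. It stood at 13.35 to 13.43 in control and at 13.18 to 13.21 at 300 mg/L. Its change of -0.19 ± 0.07 (SE) did not pass (adjusted p = 0.0788 by limma) and resembled in size that of TDH3 more than that of TDH1. Which transcripts it detects is not given in the sources used here.

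**Figure D2:**
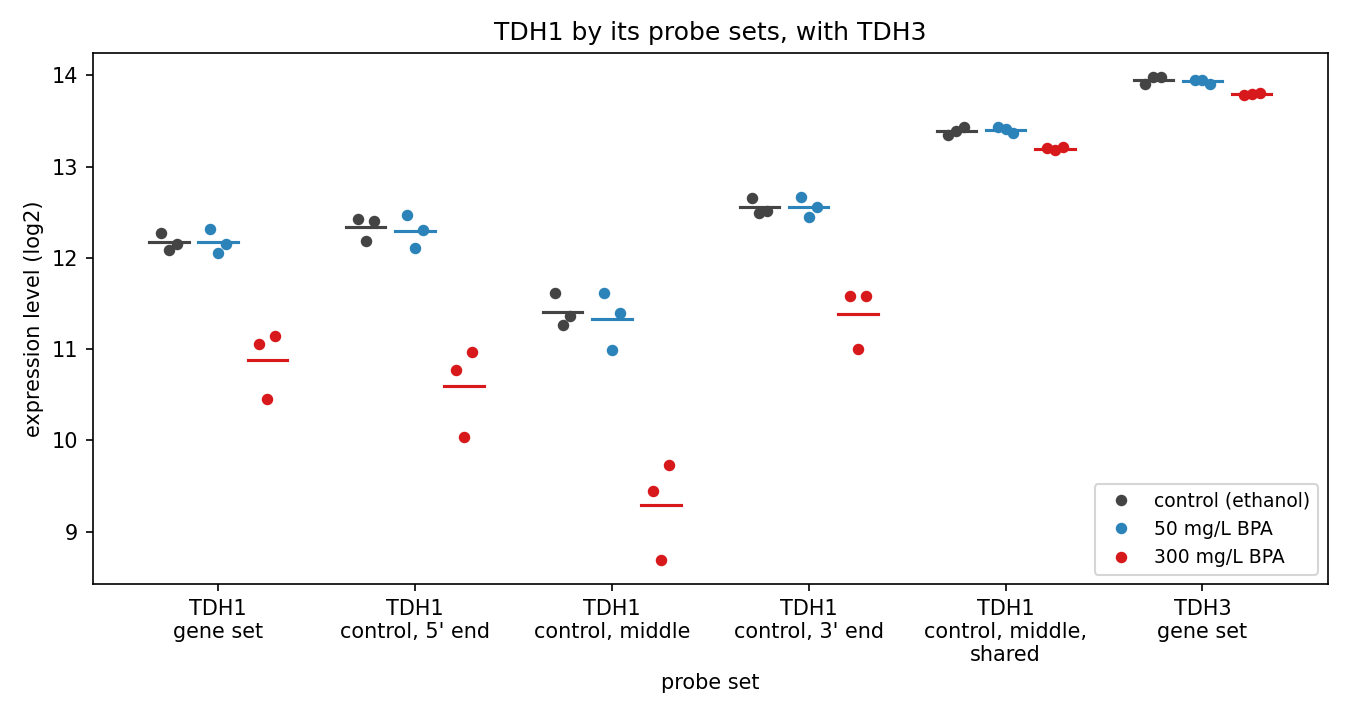
Expression levels (log2) by array for the TDH1 gene probe set, its 4 control probe sets and the TDH3 probe set; points are arrays and lines are means of 3. The TDH1 sets at the 5' end, in the middle and at the 3' end are much lower on all 300 mg/L arrays. The shared set and TDH3 are also lower on all of these arrays, but by a small amount.

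The 3' and 5' probe sets of TDH1 moved apart at 300 mg/L. Their difference averaged 0.22 in the control group, 0.26 in the 50 mg/L group and 0.80 in the 300 mg/L group. This difference reflects in part how complete the labelled RNA is, so the same measure is given for other genes with such pairs. For the actin gene ACT1 it was 0.63, 0.67 and 0.62 in the 3 groups. Over the 7 other genes with such pairs, its change from control to 300 mg/L ran from -0.10, for SPT15, to 0.26, for WBP1, whereas for TDH1 it was 0.57.

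ENO1, the enolase isozyme that is made on glucose and without it, stood at 12.92, 12.67 and 12.87 in control. It stood at 12.97, 13.05 and 12.85 at 50 mg/L, and at 11.72, 11.37 and 11.75 at 300 mg/L. As for TDH1, replicate 2 at 300 mg/L was the lowest, and the 300 mg/L arrays did not overlap the rest. ENO1 fell by 1.21 ± 0.11 (SE), 2.31-fold, and had the smallest adjusted p of the 9 genes (2.53e-05 by limma).

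ENO2, the glucose-induced enolase, stood at 13.22, 13.24 and 13.25 in control. It stood at 13.33, 13.34 and 13.29 at 50 mg/L, and at 13.05, 13.05 and 12.97 at 300 mg/L. The 50 mg/L arrays stood slightly above the control arrays, a change of 0.08 ± 0.06 (SE) that did not pass (adjusted p = 0.586 by limma). At 300 mg/L ENO2 fell by 0.21 ± 0.06 (adjusted p = 0.0113). Without replicate 3 at 300 mg/L the adjusted p was 0.0511.

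Whether isozymes of 1 step changed unequally was asked from the difference between both isozymes on the same array. A constant shift of a whole array leaves that difference unchanged, but a scaling that depends on the level does not. Only its change between groups is read, since levels of different probe sets are not comparable. Whether a probe set of an isozyme also detects a sister isozyme, TDH2 included, was not tested. An exact permutation test of the F statistic over the 3 groups used all 1680 assignments of the 9 arrays, and p-values were adjusted over the 2 ratios that could be formed.

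The TDH1 to TDH3 log ratio was -1.63, -1.89 and -1.83 in control and -1.63, -1.91 and -1.75 at 50 mg/L. At 300 mg/L it was -2.71, -3.35 and -2.67. It was thus lower at 300 mg/L than on any other array, by 1.13 ± 0.23 (SE) against control, and the exact p was 0.0321 (adjusted 0.0321). With the replicate number as a block, the adjusted exact p was 0.111.

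The ENO1 to ENO2 log ratio was -0.31, -0.58 and -0.37 in control and -0.36, -0.29 and -0.44 at 50 mg/L. At 300 mg/L it was -1.33, -1.68 and -1.22. It fell by 0.99 ± 0.16 (SE) against control, with an exact p of 0.0214 (adjusted 0.0321). With the block this ratio, too, had an adjusted exact p of 0.111. The smallest unadjusted p of the blocked test is 0.0278, and the numbers were found to pair only the control and 50 mg/L arrays. With the values quantile-normalized once more, the changes were -1.27 for the dehydrogenases and -1.18 for the enolases. That step gives TDH3 the same value on every array, so the -1.27 is the change of TDH1 alone. For 3 arrays against 3 the exact two-sided p was 0.1 for both ratios, the smallest that this design allows. At 50 mg/L the ratios differed from control by 0.02 ± 0.11 for the dehydrogenases and by 0.06 ± 0.09 for the enolases, with exact p of 0.9 and 0.6. Both the SE and the exact p treat the arrays as unpaired, although the numbers pair these 2 groups. A paired SE was not computed.

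**Figure D3:**
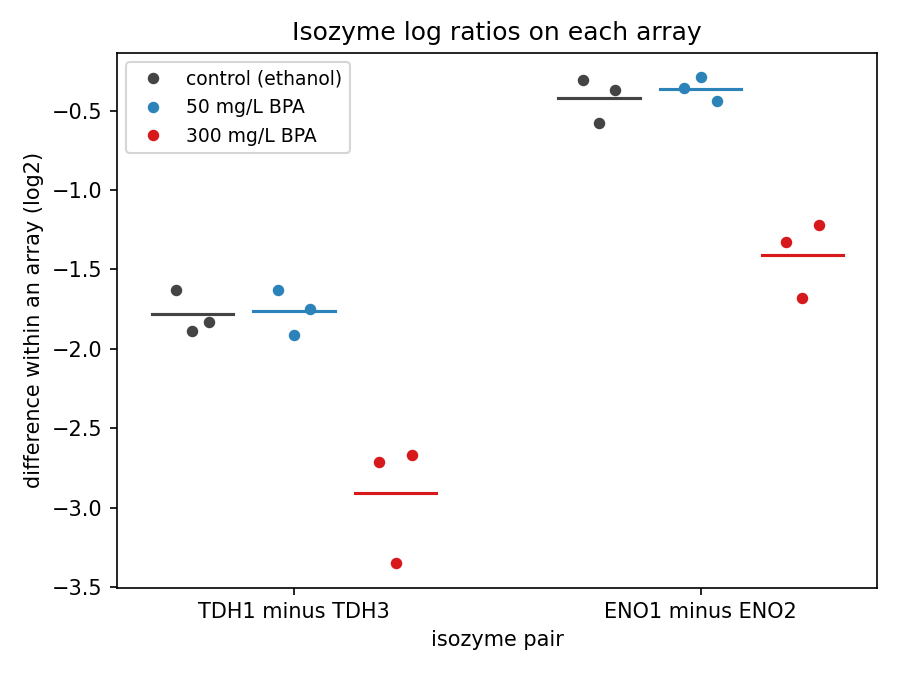
Difference in log2 level between isozymes on the same array, for TDH1 minus TDH3 and ENO1 minus ENO2; points are arrays and lines are means of 3. Both differences drop on the 3 arrays at 300 mg/L, to between -3.35 and -2.67 and between -1.68 and -1.22.

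Among the single-copy steps, PGK1, the first of the ATP-forming steps, fell most. It stood at 13.52, 13.50 and 13.49 on the control arrays. It stood at 13.53, 13.47 and 13.45 at 50 mg/L and at 13.03, 12.98 and 12.99 at 300 mg/L. The change of -0.50 ± 0.06 (SE) was larger than the spread of its replicates, with SDs of 0.01 to 0.04 (adjusted p = 8.86e-05 by limma). PGK1 was also called under each of the 18 alternative settings of this comparison, as were TDH1 and ENO1.

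GPM1, which moves the phosphate of phosphoglycerate, stood at 13.48, 13.49 and 13.51 in control and at 13.54, 13.45 and 13.47 at 50 mg/L. At 300 mg/L it stood at 13.23, 13.16 and 13.16, a fall of 0.31 ± 0.06 (adjusted p = 0.00168 by limma). FBA1, the aldolase that opens the lower part, stood at 13.41, 13.40 and 13.40 in control. At 50 mg/L it stood at 13.43, 13.38 and 13.37 and at 300 mg/L at 13.16, 13.13 and 13.25, a fall of 0.23 ± 0.06 (adjusted p = 0.0108). Both genes kept their call when any 1 array was left out.

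TPI1, which interconverts the triose phosphates, stood at 13.21, 13.32 and 13.28 in control and at 13.36, 13.21 and 13.22 at 50 mg/L. At 300 mg/L it stood at 13.03, 13.04 and 13.09, a fall of 0.22 ± 0.07 (adjusted p = 0.0209 by limma). Its call was lost without control replicate 2 or 3 or without replicate 1 or 2 at 300 mg/L, with adjusted p of 0.0568 to 0.0827.

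CDC19, the pyruvate kinase of fermenting cells, stood at 13.36, 13.40 and 13.40 in control and at 13.44, 13.47 and 13.37 at 50 mg/L. At 300 mg/L all 3 arrays stood at 13.19, a fall of 0.20 ± 0.06 (adjusted p = 0.0178 by limma). The call was lost without control replicate 2 or 3 or without replicate 1 or 3 at 300 mg/L, with adjusted p of 0.0525 to 0.0616.

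The isozymes were also set against the single-copy steps. The mean of FBA1, TPI1, PGK1, GPM1 and CDC19 was 13.41 ± 0.01 in the control group, 13.41 ± 0.04 in the 50 mg/L group and 13.12 ± 0.02 in the 300 mg/L group (SD, n = 3). Relative to this mean on the same array, the level of TDH1 changed by -0.995 and that of ENO1 by -0.915 from control to 300 mg/L. TDH3 changed by 0.13 and ENO2 by 0.08. These differences are a description, with no test. TDH3, ENO2 and the single-copy steps lie nearer the upper limit of the array than TDH1 and ENO1, and the part of that limit in these differences and in the isozyme ratios was not tested.

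The comparison of 50 mg/L with control asks whether the lower dose acts on the same genes, and none of the 9 was called. The limma fit called 0 of all 5449 genes (0.0%), with 389 at an unadjusted p under 0.05, and 0 of the 9 were among these. Changes of the 9 genes ran from -0.02, for TDH3, to 0.14, for ENO1, with adjusted p of 0.586 to 0.997. The 95% confidence interval of the change reached from -0.36 to 0.36 for TDH1 and from -0.11 to 0.39 for ENO1. For TDH3 it ran from -0.15 to 0.11 and for ENO2 from -0.05 to 0.21. These intervals rest on the spread within all 3 groups. In a fit of only the 2 groups compared, the SE was 0.09 in place of 0.16 for TDH1. For TDH3 it was 0.07 in place of 0.06. Falls of the size seen in TDH1 and ENO1 at 300 mg/L lie outside the intervals of both genes, but a change as small as that of TDH3 at 300 mg/L lies within those of TDH1.

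**Figure D4:**
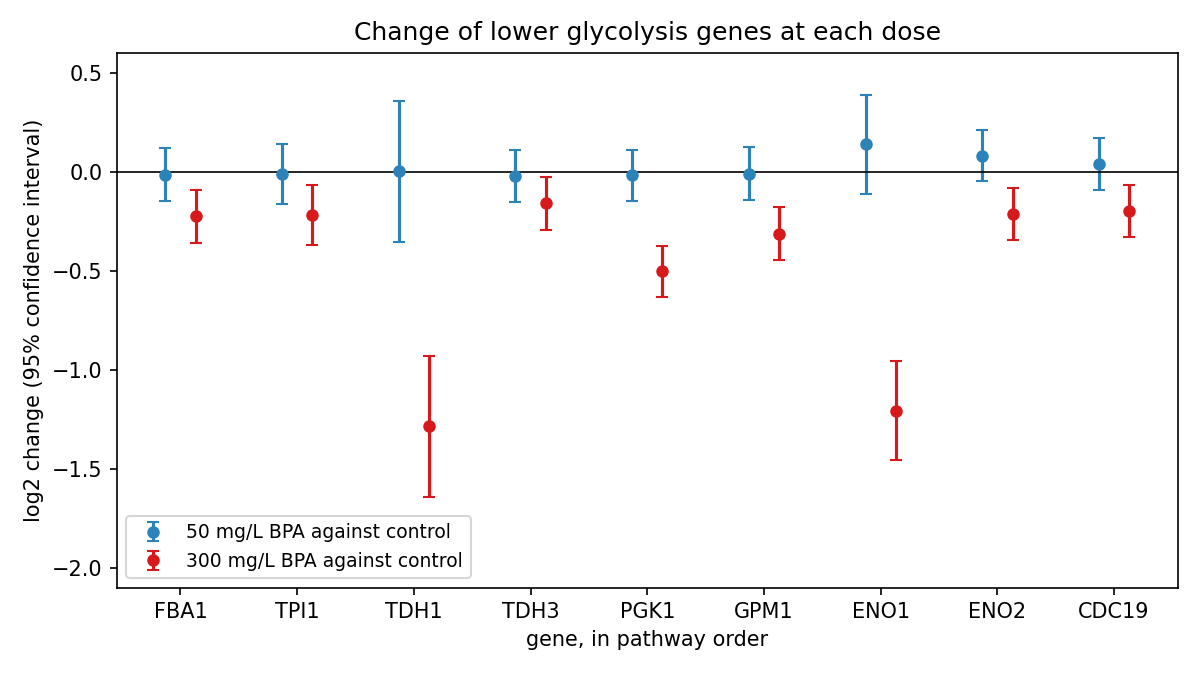
Log2 change of each gene against control at 50 mg/L (blue) and 300 mg/L (red), with 95% confidence intervals from the limma fit. The intervals at 50 mg/L all include 0, and those at 300 mg/L all lie below 0, with TDH1 and ENO1 near -1.29 and -1.21.

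Setting the 300 mg/L arrays against the 50 mg/L arrays, in place of control, asks how far both doses differ. Of the 9 genes 8 were called lower and 0 higher, where 25.3% of all genes were called lower. ENO1 was lower by 2.54-fold (adjusted p = 1.28e-05 by limma) and TDH1 by 2.44-fold (0.000127). PGK1 changed by -0.49 ± 0.06 (SE), GPM1 by -0.30 ± 0.06 and ENO2 by -0.30 ± 0.06. TDH3, at -0.14 ± 0.06, did not pass (adjusted p = 0.0713). FBA1 and TPI1, at -0.21 ± 0.06 and -0.21 ± 0.07, lost their call without replicate 1 or 2 at 300 mg/L, and TPI1 also without replicate 1 at 50 mg/L, with adjusted p of up to 0.0510 for FBA1 and 0.0865 for TPI1.

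Other genes of the pathway were taken from lists chosen by function, each short, and their counts stand against the 25.2% of all genes called lower and 27.5% called higher at 300 mg/L against control. In upper glycolysis 3 of 6 genes fell and 0 rose. HXK1, a hexokinase made when glucose runs low, fell by 1.85 ± 0.19 (SE), and the glucokinase GLK1 by 1.27 ± 0.18. PGI1 was also called lower, with a smaller change of -0.34 ± 0.07 (adjusted p = 0.00222 by limma). Among the alternatives its call was lost only with spike-in centring. HXK2, the hexokinase of growth on glucose, changed by -0.13 ± 0.08 and did not pass (adjusted p = 0.175 by limma), nor did the phosphofructokinase subunits PFK1 and PFK2, at -0.01 ± 0.09 and -0.08 ± 0.08.

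Minor paralogues of the lower steps had 4 measured members of 6, of which 2 fell and 0 rose, where 25.2% of all genes fell. GPM2, a paralogue of the mutase GPM1, fell by 1.27 ± 0.22 (SE), and PYK2, the minor pyruvate kinase, by 0.52 ± 0.12. The matching main genes changed by -0.31 for GPM1 and -0.20 for CDC19, and the difference between paralogues was not tested for these pairs.

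Past pyruvate, 2 of 6 genes fell and 1 rose, close to the shares of all genes (25.2% and 27.5%). ADH1, which makes ethanol from acetaldehyde, fell by 0.23 ± 0.06 (SE), and PDC5, a pyruvate decarboxylase, by 0.25 ± 0.08. PYC1, a pyruvate carboxylase, rose by 0.23 ± 0.06. PDC1, the main pyruvate decarboxylase, changed by -0.10 ± 0.06 and did not pass. The PDC5 call was lost without control replicate 2 or 3 or without replicate 2 or 3 at 300 mg/L, with an adjusted p of up to 0.0750. With spike-in centring none of these 3 calls passed, at adjusted p of 0.203 for ADH1, 0.169 for PDC5 and 0.608 for PYC1. The ADH1 call was also lost with repeated quantile normalization (0.583), and that of PDC5 with the arrays centred on the fission yeast probe sets (0.0517).

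Both genes specific to gluconeogenesis, the reverse route, rose, where 27.5% of all genes did. PCK1, the phosphoenolpyruvate carboxykinase, stood at 5.53 ± 0.04 in control and 7.28 ± 0.13 at 300 mg/L (SD, n = 3), a 3.36-fold rise. FBP1, the fructose-1,6-bisphosphatase, stood at 2.74 ± 0.09 and 3.38 ± 0.37, a rise of 0.64 ± 0.15 (SE) close to the background level of 2.05 to 2.20. With repeated quantile normalization FBP1 changed by -0.05 ± 0.14 and did not pass (adjusted p = 0.779 by limma). In the glycerol branch, which starts from the triose phosphates, 2 of 4 genes fell and 1 rose, the latter close to the 27.5% of all genes: GPD1 fell by 1.10 ± 0.15 and GPP2 by 0.87 ± 0.10, while GPD2 rose by 0.88 ± 0.11.

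Of 6 regulators of glycolytic genes 2 rose and 0 fell, and the share that rose is near the 27.5% of all genes. TYE7, an activator of glycolytic genes, had a level of 8.11 ± 0.04 without BPA, 8.23 ± 0.02 with 50 mg/L and 9.01 ± 0.18 with 300 mg/L (SD, n = 3), a 1.87-fold rise at the higher dose (adjusted p = 2.67e-05 by limma). GCR2, the partner of Gcr1, rose by 0.28 ± 0.09 (SE; adjusted p = 0.0292). This call was lost without control replicate 1 or 2 or without replicate 2 or 3 at 300 mg/L, with an adjusted p of up to 0.108, and with spike-in centring (0.487). GCR1 and RAP1 changed by 0.17 ± 0.09 and 0.01 ± 0.08 and did not pass (0.120 and 0.932). Of the general stress factors, MSN4 fell by 1.14 ± 0.15, and MSN2 changed by 0.21 ± 0.13 (0.193). At 50 mg/L against control limma called 0 of the 30 measured genes of these lists, with 2 at an unadjusted p under 0.05, GCR1 at 0.29 ± 0.09 and PYC2 at 0.21 ± 0.09.

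**Figure D5:**
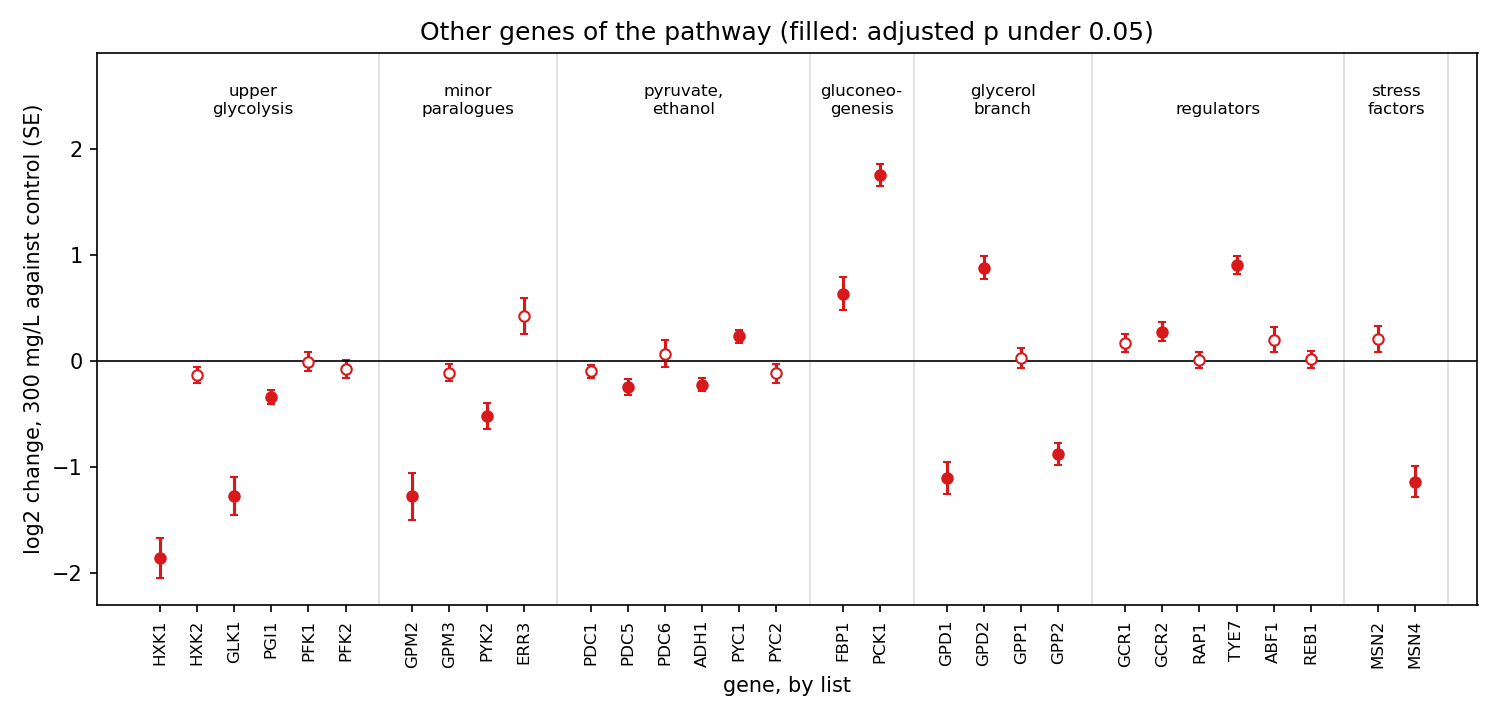
Log2 change at 300 mg/L against control of the other listed genes of the pathway, with standard errors from the limma fit; filled points passed at an adjusted p under 0.05 and open points did not. HXK1, GLK1, GPM2, GPD1 and MSN4 lie below -1, and PCK1, GPD2, TYE7 and FBP1 above 0.5.

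Over the 9 arrays, the gene outside the group with the profile most like TDH1 was JHD2, a histone demethylase, with a Pearson correlation of 0.994. For ENO1 it was SRV2, an actin-binding regulator of adenylate cyclase, at 0.990, and for FBA1 the vacuolar aminopeptidase gene APE1, at 0.992. For TDH3 it was APA1, at 0.980, for TPI1 the peptidase gene LAP3, at 0.972, and for ENO2 the mitochondrial gene MDM10, at 0.993. CDC19 was most like ADH1, the ethanol-forming dehydrogenase, at 0.996. PGK1 and GPM1 were most like YJL068C and YER187W, at 0.997 and 0.991. These correlations rest on 9 arrays, of which the 3 at 300 mg/L stand apart. Between 15 and 320 genes exceeded 0.95 for a single member, so the order among them says little.

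Between the 9 genes themselves correlations ran from 0.825, for TPI1 and ENO2, to 0.990, for PGK1 and GPM1. The profile shared by all 9 was the drop at 300 mg/L.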

How the data were processed

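The deposited values are log2 expression per probe set, made by the authors from biotin-labelled RNA on one-colour arrays. The submitters' processing notes name RMA, affy and limma without saying which did what. The number of arrays limits the precision, and no scan date or batch is given.

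Of 10928 probe sets, 5498 matched an S. cerevisiae gene of the R64 RefSeq table, used for names only, giving 5449 genes. Where a gene had more than 1 probe set (47 genes), the brightest on average was kept. Changes were tested with limma 3.58.1 in R 4.3.3 over all 9 arrays, two-sided, and isozyme log ratios by exact permutation in Python. Both were tested on simulated data. The members, lists and tests were chosen with earlier results of these data known.

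All 9 genes are named. Each list gives up to 2 rises and 2 falls that passed. PGI1, HXK2, PFK1, PFK2, PDC1, GCR1, RAP1, MSN2 and PYC2 were named after their values were seen. For likeness, the gene with the highest Pearson correlation was taken. The planned ratios with TDH2 could not be formed. RHR2 and HOR2 of the glycerol list are now GPP1 and GPP2, and ERR1 and ERR2 had no listed probe set.

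To see whether replicate numbers pair arrays, deviations from group means were correlated over all genes. Same-numbered control and 50 mg/L arrays gave 0.19 to 0.42 and were taken as paired. Same-numbered pairs with the 300 mg/L group ran from -0.34 to 0.16 and were not. Alternatives changed the scaling, probe set, filter, prior, samples and block. Figures were drawn with matplotlib 3.10.9.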

Additional observations from a re-analysis of the deposited data

How the results depend on the processing

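The falls of TDH1, ENO1 and PGK1 at 300 mg/L kept their direction and call under all 18 alternatives, in both comparisons with that dose. With spike-in centring or repeated quantile normalization, the genes called numbered 3 at 300 mg/L against control, in place of 9, and 3 against 50 mg/L, in place of 8. Spike-in centring gave larger falls against control with a wider SE, 0.183 for each gene. That shared value does not reflect the replicate spread of each gene. Repeated quantile normalization brought the changes of the 6 genes that lost their call against control to between -0.090 and 0.025. For TDH3, the brightest gene on every array, the step itself allows no change. The others of the 6 could change under it only by changing rank, so their lost calls do not show whether they fell. The cause of their smaller changes was not tested. Repeated quantile normalization turned the sign of CDC19 against control (0.025) and of FBA1 against 50 mg/L (0.006). With S. pombe centring 6 genes were called against control. Spike-in centring moved the median of all genes by -0.11 at 50 mg/L against control. Leaving out 1 array gave 6 to 9 genes called against control, 6 to 8 against 50 mg/L, and 0 at 50 mg/L. The change of the TDH1 to TDH3 ratio then ran from -1.246 to -0.908 and that of the ENO1 to ENO2 ratio from -1.085 to -0.856, with adjusted exact p of 0.0179 to 0.0357.

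With the replicate number as a block, the ratio changes of -1.126 and -0.992 had an adjusted exact p of 0.111, where 0.0278 is the smallest unadjusted p that this test allows, and TDH3 at 300 mg/L had 0.0692. The numbers were not found to pair the 300 mg/L arrays. For 50 mg/L against control, where they pair, the block left 0 genes called, also in a fit of those 6 arrays added after seeing the data, so the pairing changed no other call. Repeated quantile normalization, added later for the ratios, gave changes of -1.274 and -1.179, with an adjusted exact p of 0.0357. The -1.274 is the change of TDH1 alone, since this step gives TDH3 the same value on every array. With the TDH1 control probe sets, also added later, the ratio changed by -1.007 at the 3' end, -1.96 in the middle and -1.582 at the 5' end. In a fit with a prior variance that follows the level, TDH3 against 50 mg/L passed (0.00352).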
